A study of Mus musculus with 3 samples.

Results

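*Btg1*, *Btg2*, *Btg3*, *Tob1* and *Tob2*, which code for antiproliferative proteins of the Btg/Tob family, and *Zfp36*, *Zfp36l1* and *Zfp36l2*, which code for RNA-binding proteins that destabilise messages, were followed by symbol in single Müller glia (MG) of the mouse retina. They are 8 of the 32287 gene features counted. MG had been labelled with tdTomato in Glast-CreERT2; R26-CAG-LSL-Tdt mice, in which Cre activity follows the glutamate transporter promoter of glia. Every mouse received tamoxifen at 75 mg/kg from P20 and an intravitreal injection of adeno-associated virus (AAV7m8) at P28, and the retinas were collected at P51. The control mice received a virus in which the *GFAP* promoter drives GFP together with an shRNA against LacZ. The cell cycle activator (CCA) mice received a virus whose *GFAP* promoter drives cyclin D1 and an shRNA against p27Kip1, mixed with a smaller amount of the GFP virus to show the infected area. The CCANT mice received the CCA injection and then NMDA, which injures retinal neurons, at P35 and the histone deacetylase inhibitor trichostatin A (TSA) at P37.

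Each group was 1 droplet library made from 2 to 4 pooled retinas that had been chosen for good infection, dissociated with papain and sorted for tdTomato. No replicate error exists, so no test was made and no p-value is given. Levels are UMIs (unique molecular identifiers, single counted transcripts) per 1000000 UMIs (CPM), summed over the cells of a group, and every interval is an exact 95% Poisson or binomial interval that covers counting error only. A gene was called past 2-fold when its log2 ratio was at least 1 or at most -1, where it averaged 20 CPM or more over both groups and had 50 UMIs or more. The libraries count the 3' ends of transcripts, so levels were compared between groups and not between genes.

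Btg and Tob proteins bind deadenylases of the CCR4-NOT complex and slow entry into the cell cycle, and *Btg2* is a textbook p53 target as well as an immediate-early gene, one that is transcribed within minutes of a stimulus. Zfp36 proteins are zinc finger proteins that bind AU-rich sequences in 3' UTRs and recruit the same deadenylases, so that both families act on the poly(A) tail of messages. *Zfp36* is itself an immediate-early gene, whose message carries AU-rich sites. Quiescent MG express high levels of p27Kip1 and low levels of cyclin D1, and these glia rarely divide in the mouse. The study describes their regenerative potential as limited by this, and found reactivating the cycle insufficient for robust reprogramming to neurons.

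After the authors' filters 3758, 3890 and 3278 cells of control, CCA and CCANT were kept, with medians of 24236, 20711 and 20722 UMIs. Clusters named from markers put 3718, 3650 and 2846 of them in MG, with 94536875, 78468859 and 60976510 UMIs in all. All 9 MG markers were above 10 CPM in each group. The other kept cells were clusters of mixed MG and rod transcripts (31, 211 and 418 cells) and rods (9, 29 and 14 cells), and both were left out. The summed level of 9 rod markers within MG was 273, 469 and 631 CPM, and none of them was at 0. Cell barcodes shared between 2 libraries numbered 2 to 8. The MG clusters were filled unequally: 2011 and 1433 of the control MG lay in clusters 1 and 4, whereas 1083 and 1187 of the CCA MG and 1249 and 1062 of the CCANT MG lay in clusters 2 and 3.

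*Cdkn1b*, which codes for p27Kip1, the target of the shRNA, was at 226.4 CPM in control MG, 84.7 in CCA MG and 106.5 in CCANT MG. Its level was thus lower in both groups with the CCA virus. *Ccnd1*, which codes for cyclin D1, was at 212.9, 137.7 and 128.5 CPM, so that the transcript was lower in both libraries whose vector codes for cyclin D1. The study reports that cyclin D1 protein was raised early after CCA, and that the rise in *Ccnd1* was gone by the time of its single-cell data. The files hold no separate feature for the transcript of the vector, and whether its reads count towards *Ccnd1* was not checked, which holds for every *Ccnd1* level given here. *Mki67*, a marker of proliferating cells, was at 0.984, 53.8 and 21.1 CPM.

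The promoters of *Btg2*, *Zfp36* and *Zfp36l1* are shown because these are the members whose 250 bases before the RefSeq start hold a full match to a motif searched for, as described below. Promoters of 7 of the 8 members were matched, and none was matched for *Zfp36l2*. Capitals mark the motif, and the sequences are RefSeq on GRCm38.p6, all 3 from the minus strand, at chr1:134079156-134079405, chr7:28379229-28379478 and chr12:80113014-80113263.
Btg2: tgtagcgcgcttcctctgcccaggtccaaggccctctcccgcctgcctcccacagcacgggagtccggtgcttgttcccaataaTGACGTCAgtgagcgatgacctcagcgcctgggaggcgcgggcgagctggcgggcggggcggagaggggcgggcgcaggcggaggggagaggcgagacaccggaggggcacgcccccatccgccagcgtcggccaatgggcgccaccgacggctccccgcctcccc
Zfp36: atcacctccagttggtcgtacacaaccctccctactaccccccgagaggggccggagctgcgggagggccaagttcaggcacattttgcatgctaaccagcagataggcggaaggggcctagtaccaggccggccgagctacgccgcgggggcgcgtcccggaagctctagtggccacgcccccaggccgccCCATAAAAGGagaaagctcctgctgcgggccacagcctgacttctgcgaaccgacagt
Zfp36l1: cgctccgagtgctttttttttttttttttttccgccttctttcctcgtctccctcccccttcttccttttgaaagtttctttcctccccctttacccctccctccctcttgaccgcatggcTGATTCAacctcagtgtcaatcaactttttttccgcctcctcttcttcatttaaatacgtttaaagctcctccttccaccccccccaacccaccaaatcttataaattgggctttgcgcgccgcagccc

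The *Btg2* promoter holds the cyclic AMP response element (CRE, TGACGTCA) 166 bases before the start, a motif that 1.55% of 32851 mouse promoters of this length hold. The *Zfp36* promoter holds a CArG box, the sequence bound by serum response factor, 58 bases before the start (1.47% of promoters). The *Zfp36l1* promoter holds an AP-1 site (TGANTCA), the sequence bound by Fos and Jun dimers, 129 bases before the start (6.75% of promoters). Both strands were searched, and a match is a match of letters only. A p53 decamer, held by 7.13% of promoters, was in none of the members' windows. The shorter core TGACG, part of the CRE and held by 17.8% of promoters, occurred also in the promoters of *Btg1* and *Tob1*.

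The AU-rich core TATTTAT, which Zfp36 proteins bind, occurs in the 3' UTRs of 6 of the 8 members. *Zfp36*, *Zfp36l1* and *Zfp36l2* hold 3 sites each, *Btg3* holds 2, *Btg2* and *Tob2* hold 1 each, and *Btg1* and *Tob1* hold none in UTRs of 4166 and 767 bases. The first site of each, with the core in capitals and 10 bases on either side, is shown because it is the sequence through which these messages can themselves be targets of the family (GENCODE annotation on GRCm38).
Btg2: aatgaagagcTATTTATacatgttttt
Btg3: tggacttgagTATTTATatattgtgca
Tob2: atcacctgctTATTTATgtacgaggtt
Zfp36: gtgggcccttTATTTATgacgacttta
Zfp36l1: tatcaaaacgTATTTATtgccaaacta
Zfp36l2: ctatttaactTATTTATtatcttgtga

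The comparison of CCA with control asks how these genes stood in MG of mice given the vector for cyclin D1 and the p27Kip1 shRNA without injury, and that of CCANT with control asks the same after injury and TSA. Both use the same control library. Of the 8 members, *Btg2* and *Zfp36* were past 2-fold higher in CCA than in control MG, against 71 of 7564 genes measured (0.939%), and the same 2 members were past 2-fold higher in CCANT, against 71 of 7526 genes (0.943%). No member was past 2-fold lower in either comparison, where 0.41% and 0.93% of genes were. The log2 ratios of the other 6 members lay between -0.04 and 0.44. The median log2 ratio of the 8 members was 0.29 in CCA and 0.33 in CCANT, and that of all genes measured was 0.02 and 0.00.

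*Btg2* (chr1:134075170-134079120, minus strand, 2 exons) is the Btg gene named as a p53 target. Its level was 389.6 CPM in control MG (interval 385.6 to 393.6). In CCA it stood at 1051 CPM (1044 to 1058), and in CCANT at 933 CPM (925 to 941). Both treated libraries were high and their intervals did not overlap that of the control. The log2 ratio was 1.43 (1.41 to 1.45) in CCA, a 2.70-fold higher level, and 1.26 (1.24 to 1.28) in CCANT, 2.40-fold higher.

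The ratio of *Btg2* moved with the cells that were taken as MG. Without clusters 4 and 6, whose naming as MG rested on a setting chosen after the clusters were seen, it was 1.84 in CCA and 1.67 in CCANT. Cluster 4, led by interferon-induced genes such as *Iigp1* and *Gbp2*, held 1433 control, 396 CCA and 64 CCANT cells, and *Btg2* was at 526.1, 970.2 and 730.6 CPM in it. Over all kept cells, with no naming of clusters, the log2 ratios were 1.45 and 1.27.

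Within the clusters *Btg2* did not stand in one order. In cluster 2 the levels were 375.9, 827.1 and 710.3 CPM in the order control, CCA, CCANT. In cluster 3, led by *Fos* and *Ccn1*, both immediate-early genes, it was at 852.6, 1816 and 1341 CPM. In cluster 6, led by *S100a6* and the metallothionein genes *Mt1* and *Mt2*, it was at 312, 846.3 and 790.5 CPM. CCA was highest in these 3 clusters, and also in clusters 1 and 4. In cluster 1, to which most control MG belonged, *Btg2* had 278.4 CPM in the control, 378.6 CPM under CCA and 213.2 CPM under CCANT, so that the 89 CCANT cells there were below the control.

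*Btg1* (chr10:96617006-96622809, plus strand, 4 exons over 2 transcripts) is named for B-cell translocations. It had 221.7 CPM in the control, 279 CPM under CCA and 300.3 CPM under CCANT. The treated libraries were higher by 0.33 (0.30 to 0.36) and 0.44 (0.41 to 0.47) on the log2 scale. *Btg3* (chr16:78332637-78377192, minus strand, 9 exons over 3 transcripts) had 29.2, 34.9 and 32.2 CPM. Its log2 ratios were 0.26 (0.18 to 0.33) and 0.14 (0.05 to 0.22). Exons of *Btg3* share bases with *Cxadr* on the opposite strand.

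*Tob1* (chr11:94211454-94215495, plus strand, 2 exons), which codes for the transducer of ErbB2, had 69.4 CPM in the control, 78.7 CPM under CCA and 76.3 CPM under CCANT. Its log2 ratios were 0.18 (0.13 to 0.23) and 0.14 (0.08 to 0.19). *Tob2* (chr15:81848272-81858796, minus strand, 8 exons over 4 transcripts), the closest relative of *Tob1*, was at 59.4, 57.9 and 58.9 CPM. Both of its intervals, -0.09 to 0.02 in CCA and -0.07 to 0.05 in CCANT, included 0, and the counting error leaves room for a difference of at most 0.09 on the log2 scale.

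*Zfp36* (chr7:28376784-28380253, minus strand, 3 exons over 2 transcripts), which codes for tristetraprolin, had 71.6 CPM in control MG (interval 70.0 to 73.4). Under CCA the level was 195.6 CPM (192.5 to 198.7), and under CCANT 188.5 CPM (185.1 to 192.0). Both treated libraries were far above the control, and their intervals lay close to each other. The log2 ratio was 1.45 (1.41 to 1.49) in CCA and 1.40 (1.35 to 1.44) in CCANT, which are 2.73-fold and 2.63-fold higher levels. Without clusters 4 and 6 the ratios were 2.16 and 2.08. Over all kept cells they were 1.504 and 1.439. Within single clusters *Zfp36* was past 2-fold in none of clusters 1, 2, 3, 4 and 6. Cluster 1 had 35.4, 49.1 and 22.1 CPM in the order control, CCA, CCANT. Cluster 2 had 65.2, 112.4 and 97.5 CPM, and cluster 3 had 239.6, 365.5 and 299.9 CPM. Cluster 4 had 108.8, 169.6 and 184.8 CPM, and cluster 6 had 168.9, 303.8 and 248.6 CPM. Genes on the opposite strand share bases with exons of *Zfp36*, and likewise of *Tob2*, *Zfp36l1* and *Zfp36l2*, and reads of such pairs were not separated beyond the authors' counting.

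*Zfp36l1* (chr12:80107754-80113013, minus strand, 10 exons over 4 transcripts) is a paralogue known from the control of quiescence and differentiation in lymphocytes. It had 650.8 CPM in the control, 722.6 CPM under CCA and 782.3 CPM under CCANT. Its log2 ratios were 0.15 (0.13 to 0.17) and 0.27 (0.25 to 0.28). *Zfp36l2* (chr17:84183931-84187947, minus strand, 2 exons) had 256.8, 323.9 and 339.7 CPM. Its log2 ratios were 0.33 (0.31 to 0.36) and 0.40 (0.38 to 0.43). Both paralogues were thus higher in the treated libraries, by much less than *Zfp36*.

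**Figure D1:**
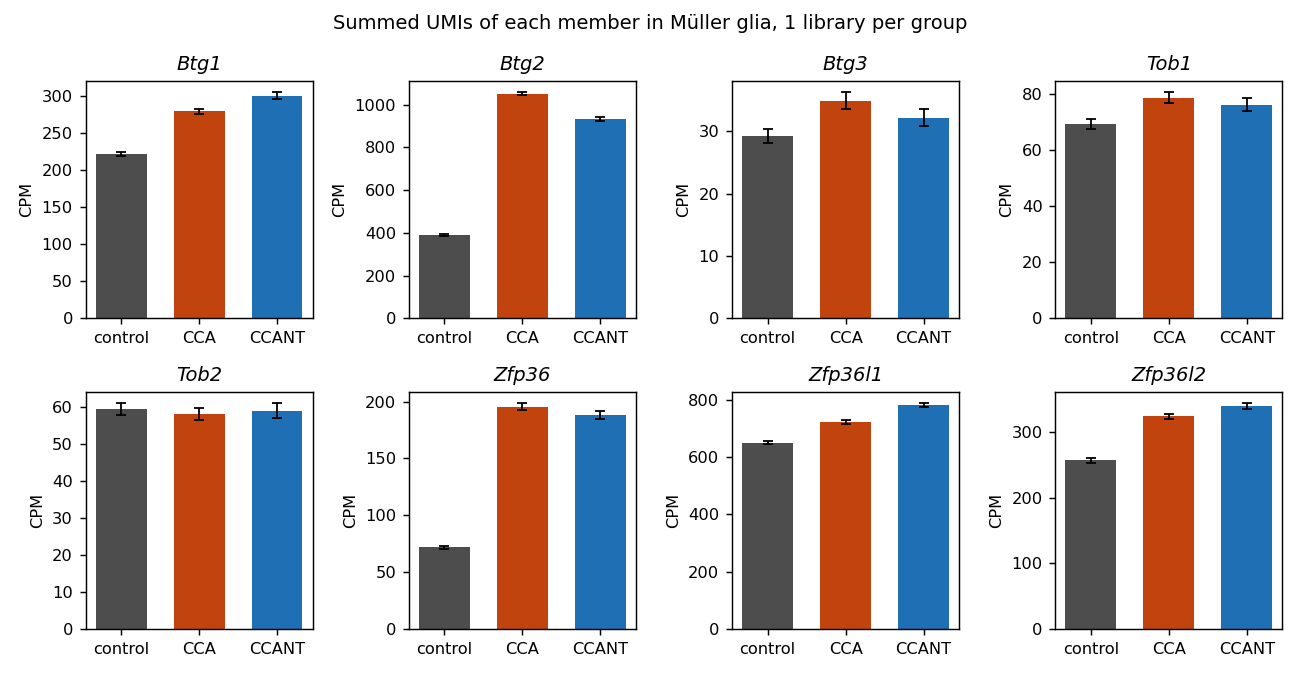
Levels of the 8 genes in MG of control, CCA and CCANT, as UMIs per 1000000 with exact 95% Poisson intervals (bars from 0 on linear axes, 1 panel per gene), 1 library per group. *Btg2* (389.6, 1051 and 933 CPM) and *Zfp36* (71.6, 195.6 and 188.5 CPM) are set apart from control in both treated groups, and *Tob2* is level.

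CCANT was then set against CCA, 2 libraries that both received the CCA virus and differ in NMDA and TSA, and also in the sex of the mice, as CCA MG were female and CCANT MG of both sexes. No member was past 2-fold in either direction, where 0.131% of 7631 genes were higher and 0.367% were lower in CCANT. *Btg2* was lower in CCANT by 0.17 on the log2 scale (ratio -0.17, interval -0.19 to -0.16). The others lay between -0.12 for *Btg3* and 0.11 for *Btg1* and *Zfp36l1*, and the intervals of *Tob1* and *Tob2* included 0. In female cells alone, *Btg2* was at -0.20 (-0.22 to -0.18), *Zfp36* at -0.12 (-0.17 to -0.08) in place of -0.05, *Zfp36l1* at 0.07 (0.04 to 0.09), and *Tob1* at -0.08 with an interval that excluded 0 (-0.15 to -0.01).

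To count the cells that carried the transcripts, each MG was thinned to 8000 UMIs, which left out 27, 76 and 40 shallower cells. *Btg2* then had at least 1 UMI in 78.3% of control MG (77.0% to 79.6%). The share was 89.9% under CCA (88.9% to 90.9%) and 89.1% under CCANT (87.9% to 90.3%). The median cell held 2, 7 and 6 *Btg2* UMIs, and the 90th percentile lay at 7, 20 and 16 UMIs. Cells with 15 or more *Btg2* UMIs made up 0.786% of control, 20.7% of CCA and 13.9% of CCANT MG. The difference in *Btg2* was thus spread over the distribution, while 10.1% of CCA and 10.9% of CCANT MG still had no *Btg2* UMI at this depth.

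*Zfp36* had a UMI in 30.3% of control MG (28.9% to 31.9%). The share was 55.8% under CCA (54.2% to 57.5%) and 53.6% under CCANT (51.8% to 55.5%). Before thinning the shares were 49.7%, 71.2% and 71.1%. *Tob2* was again level or slightly lower, with 38.4%, 36.2% and 36.4% of thinned cells. *Btg1* was found in 79.5%, 82.2% and 84.6%, and *Btg3* in 20.2%, 23.7% and 22.2%. *Tob1*, *Zfp36l1* and *Zfp36l2* ranged over 38.8% to 42.1%, 92.2% to 94.4% and 77.9% to 84.3%.

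**Figure D2:**
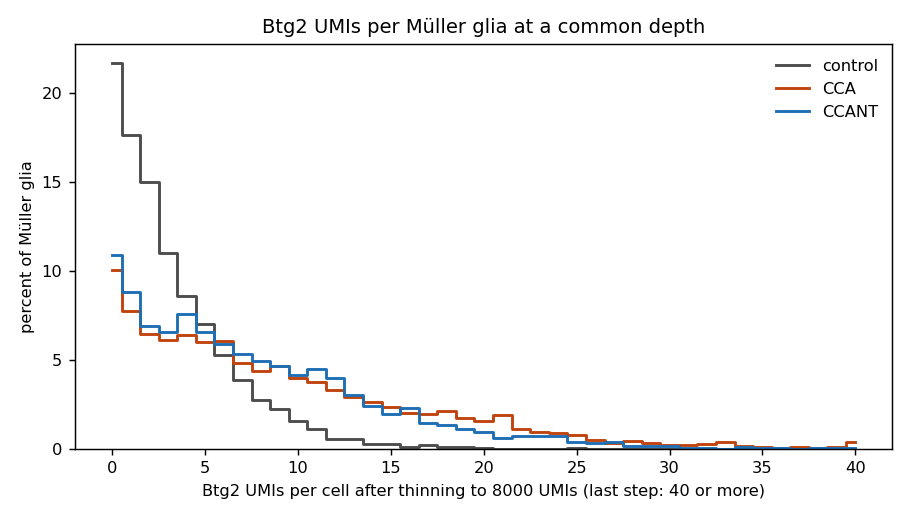
Share of MG (percent, y axis) by number of *Btg2* UMIs per cell after thinning to 8000 UMIs (x axis, where the last step also holds the cells above it), 1 line per library. Every line peaks at 0 UMIs, with 21.7% of control cells there, and the CCA and CCANT lines are lower at 0 (10.1% and 10.9%) and reach further to the right.

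*Btg2* and *Zfp36* are immediate-early genes, and such genes are also raised when tissue is dissociated. The MG were therefore split by the summed level of 28 immediate-early and dissociation genes, none of them a member, into 5 bins with edges at the quintiles of all MG pooled. The list summed to 5039, 8676 and 8544 CPM over control, CCA and CCANT MG. It was also higher in CCA than in control in every other retinal class with both values. In rods it was at 674 and 931 CPM, and in microglia and macrophages at 4146 and 5814 CPM. These sums were not corrected for MG transcripts in those cells. Bin 1, the lowest, held 29.5% of control but 14.8% of CCA and 14.3% of CCANT MG. Bin 5, the highest, held 3.15%, 31.1% and 27.8%.

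*Btg2* increased from bin to bin in all 3 libraries. In control MG it was at 181.2, 334.6, 471.4, 756.6 and 1083 CPM in bins 1 to 5. In CCA MG it was at 155.8, 500.7, 750.1, 1089 and 1909 CPM, and in CCANT MG at 127.6, 426.2, 686, 1018 and 1588 CPM. In bin 1 both treated libraries were below the control, with log2 ratios of -0.22 (-0.30 to -0.14) in CCA and -0.51 (-0.61 to -0.41) in CCANT. In bins 2 to 5 both were above it, by 0.52 to 0.82 in CCA and 0.35 to 0.55 in CCANT, and no bin was past 2-fold.

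*Zfp36* ran from 23.7 CPM in bin 1 to 312.9 in bin 5 of control, from 24.0 to 416.4 in CCA and from 21.6 to 384.6 in CCANT. Within a bin the log2 ratios of *Zfp36* to control were 0.02 to 0.41 in CCA and -0.13 to 0.34 in CCANT. In both comparisons the intervals lay above 0 in bins 2, 3 and 5 and included 0 in bins 1 and 4. *Tob2* was flat, at 55.0 to 61.9 CPM over the control bins, 53.9 to 62.7 over the CCA bins and 56.9 to 62.8 over the CCANT bins. *Zfp36l2* ran from 191.3 to 536.7 CPM in control, and in bins 4 and 5 both treated libraries were below the control.

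Weighting the bins of the treated libraries to the control shares gave log2 ratios of 0.54 in CCA and 0.36 in CCANT for *Btg2*, and of 0.22 and 0.20 for *Zfp36*. *Btg2* and *Zfp36* were then below 2-fold. The share of all genes past 2-fold under this weighting is not given here, so this is not read as particular to the members. *Zfp36l1* and *Tob1* turned to the other side of 0 in both comparisons (*Zfp36l1* -0.12 and -0.04, *Tob1* -0.09 and -0.11). The immediate-early sum was as high in CCA, without NMDA and TSA, as in CCANT. Whether it moved with the virus or with the dissociation of each library was not tested, and with 1 library per group these cannot be told apart.

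**Figure D3:**
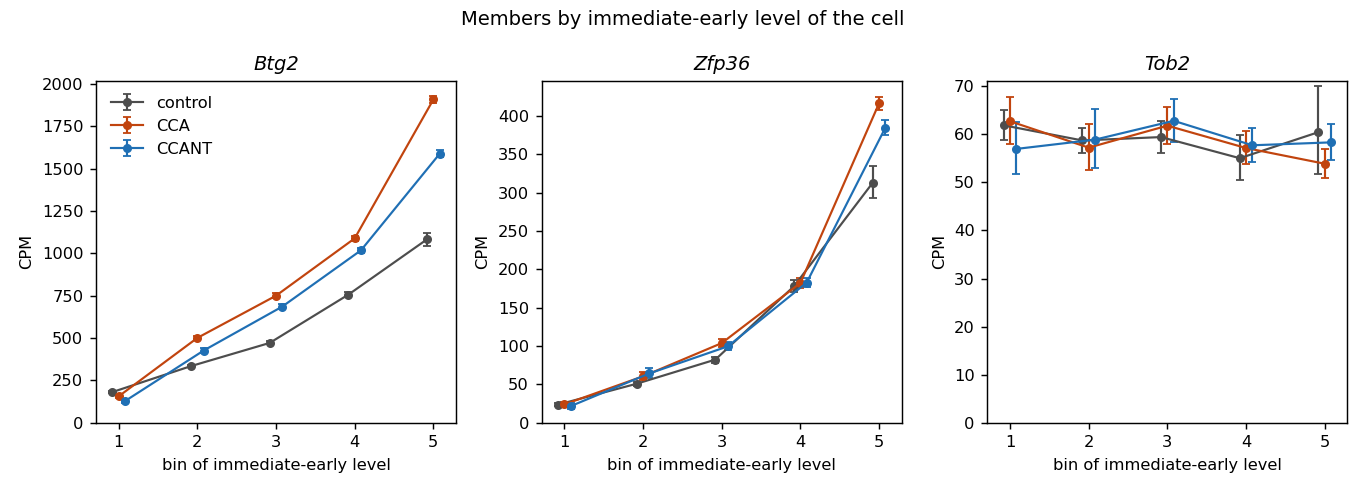
Levels of *Btg2*, *Zfp36* and *Tob2* (CPM, y axis from 0) in 5 bins of the summed immediate-early level (x axis, lowest to highest), 1 line per library with exact 95% Poisson intervals. *Btg2* climbs with the bin in every library, from 181.2 to 1083 CPM in control and from 155.8 to 1909 CPM in CCA, and *Tob2* stays level.

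The genes most like *Btg2* over 25 points, each a retinal class in 1 library with at least 50 cells, were *Selenos* (Pearson r of log2(CPM + 1) 0.93), *Pnrc2*, *Smim27*, *Sec13* and *Kremen1* (0.87 for the last). *Btg1* had r = 0.81 and *Zfp36* r = 0.72 with *Btg2*. For *Zfp36* they were *Nfkbiz* (0.97), *F11r*, *Rnf213*, *Junb* and *Dusp1* (0.96), of which *Nfkbiz*, *Junb* and *Dusp1* are immediate-early genes. The points share libraries and their depth, so that these values are descriptions.

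Next, cycling MG were set against the other MG of their library, since Btg and Tob proteins are known as brakes on the cycle. A cell was taken as cycling with at least 1 UMI of *Mki67* or *Top2a*, which found 41 cells of the control (1.10%, interval 0.79% to 1.49%). CCA held 716 such cells (19.6%, 18.3% to 20.9%), and CCANT held 260 (9.14%, 8.10% to 10.3%). With 3 UMIs or more there were 234 CCA and 73 CCANT cells. Clusters 7 and 8, which are led by cell cycle genes, held 170 and 168 CCA MG and 60 and 41 CCANT MG. By the same rule of 1 UMI, amacrine cells, which do not divide, were taken as cycling in 3.27% of control (1.75% to 5.52%), 5.53% of CCA (3.57% to 8.12%) and 7.20% of CCANT cells (4.76% to 10.4%), at medians of 21571, 25460 and 23118 UMIs. In bipolar cells the rule gave 0.366% (0.0756% to 1.07%), 6.97% (5.59% to 8.55%) and 3.83% (2.90% to 4.96%), at medians of 17222, 15649 and 14969 UMIs. Rods had 0.118%, 3.69% and 1.81% at medians of 4966 to 5070 UMIs, and cones had 0% (0% to 2.38%), 4.15% and 3.98%. For the 0 of 153 control cones, 3 counts would be 1.96%. The CCA share in MG was above the intervals of all 4 classes. The CCANT share was above those of rods, cones and bipolar cells and overlapped with that of amacrine cells. The control share was above that of rods, overlapped with those of bipolar cells and cones and was below that of amacrine cells. The median cycling cell was slightly deeper, at 22107 against 20442 UMIs in CCA and 22798 against 20297 in CCANT. No member was past 2-fold in either library, where 2.76% of 7819 genes in CCA and 2.29% of 7772 genes in CCANT were higher in cycling cells and 0% were lower in each.

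*Btg2* was at 970.7 CPM in cycling and 1073 in other CCA MG, and at 856 and 941.9 in CCANT. The log2 ratio was -0.14 in both (-0.17 to -0.12 and -0.18 to -0.10). It turned to 0.060 and 0.018 when cluster 8, whose S and G2/M markers were both raised, was left out. With at least 3 UMIs of *Mki67* and *Top2a* against none it was -0.71 and -0.75. In the 41 control cells it was 0.13, with an interval that included 0.

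*Zfp36l1* was lower in cycling cells, at 585.1 against 759.7 CPM in CCA (log2 ratio -0.38, -0.41 to -0.35) and 654.1 against 797.3 in CCANT (-0.29, -0.33 to -0.24). *Btg3* was higher in CCA, at 42.4 against 32.9 CPM (0.37, 0.24 to 0.49), and its interval in CCANT included 0 (0.17, -0.03 to 0.37). *Zfp36* was at 199.2 against 194.6 CPM in CCA and 207.9 against 186.2 in CCANT, and its interval in CCA included 0. *Zfp36l2* was higher by 0.13 and 0.10, *Btg1* lower by 0.13 and 0.16, and *Tob1* had intervals that included 0 in both.

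The clusters led by cell cycle genes were then read by themselves, and the members differed between them. This split was chosen after the values of cycling cells were seen. Cluster 7, in which markers of S phase were raised and which *Pcna* and *Mcm6* were among the genes to lead, held 170 CCA and 60 CCANT MG. Cluster 8, in which markers of both S and G2/M phase were raised, held 168 and 41. It was led by *Cenpf* and *Top2a*, and the histone genes *Hist1h2ap* and *Hist1h1b*, which are made in S phase, were among its leading genes. Against CCA MG in clusters outside the cycle, no member was past 2-fold in cluster 7, where 4.57% of 7804 genes were higher and 0.538% lower. In cluster 8 *Btg3* was past 2-fold higher, against 12.7% of 8055 genes, and *Btg2*, *Zfp36* and *Zfp36l1* were past 2-fold lower, against 7.19% of genes.

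*Zfp36l1* was at 763.8 CPM outside the cycle, 493.5 in cluster 7 and 234.6 in cluster 8 of CCA, and at 799.2, 510.5 and 277.2 CPM in CCANT. It was the lowest in cluster 8 in both libraries, with log2 ratios of -1.70 (-1.80 to -1.61) and -1.53 (-1.69 to -1.37). *Btg2* was at 1104, 689.2 and 496.5 CPM in CCA and 947.7, 756.1 and 414.5 CPM in CCANT. Its ratios in cluster 8 were -1.15 (-1.22 to -1.09) and -1.19 (-1.33 to -1.06). Control MG as a whole had 389.6 CPM, below both clusters in CCA and CCANT, though the interval of cluster 8 in CCANT (378.3 to 453.1) held this value.

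*Zfp36* was at 205.8, 120.9 and 94.6 CPM in CCA and 191.8, 138.3 and 83.2 CPM in CCANT, with cluster 8 ratios of -1.12 (-1.27 to -0.97) and -1.20 (-1.51 to -0.92). *Btg3* was highest in cluster 8, at 33.3, 29.7 and 69.3 CPM in CCA and 31.7, 35.1 and 54.1 CPM in CCANT, with cluster 8 ratios of 1.06 (0.87 to 1.24) and 0.77 (0.38 to 1.13). *Zfp36l2* (323, 321.8 and 342.3 CPM in CCA) and *Tob2* (57.9, 51.1 and 66.0 CPM) were nearly level. *Btg1* was at 290.3, 193.3 and 167.9 CPM, lower in both clusters, and *Tob1* was at 80.4, 53.2 and 74.3 CPM, lower in cluster 7.

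Other values moved with cluster 8. The immediate-early list summed to 4947 CPM there and 6227 CPM in cluster 7, against 9032 CPM outside the cycle in CCA. *Glul*, glutamine synthetase, a marker of mature MG, was at 1028 CPM in cluster 8 against 6136 CPM outside the cycle, and the median log2 ratio of all genes was 0.13. *Cdkn1a*, which codes for the p53 target p21, was at 193.1 against 71.3 CPM. *Ccnd1* was at 178.7 CPM in cluster 8 and 220.4 CPM in cluster 7, against 130.4 CPM outside the cycle in CCA. The part of these values in the members' levels was not tested.

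**Figure D4:**
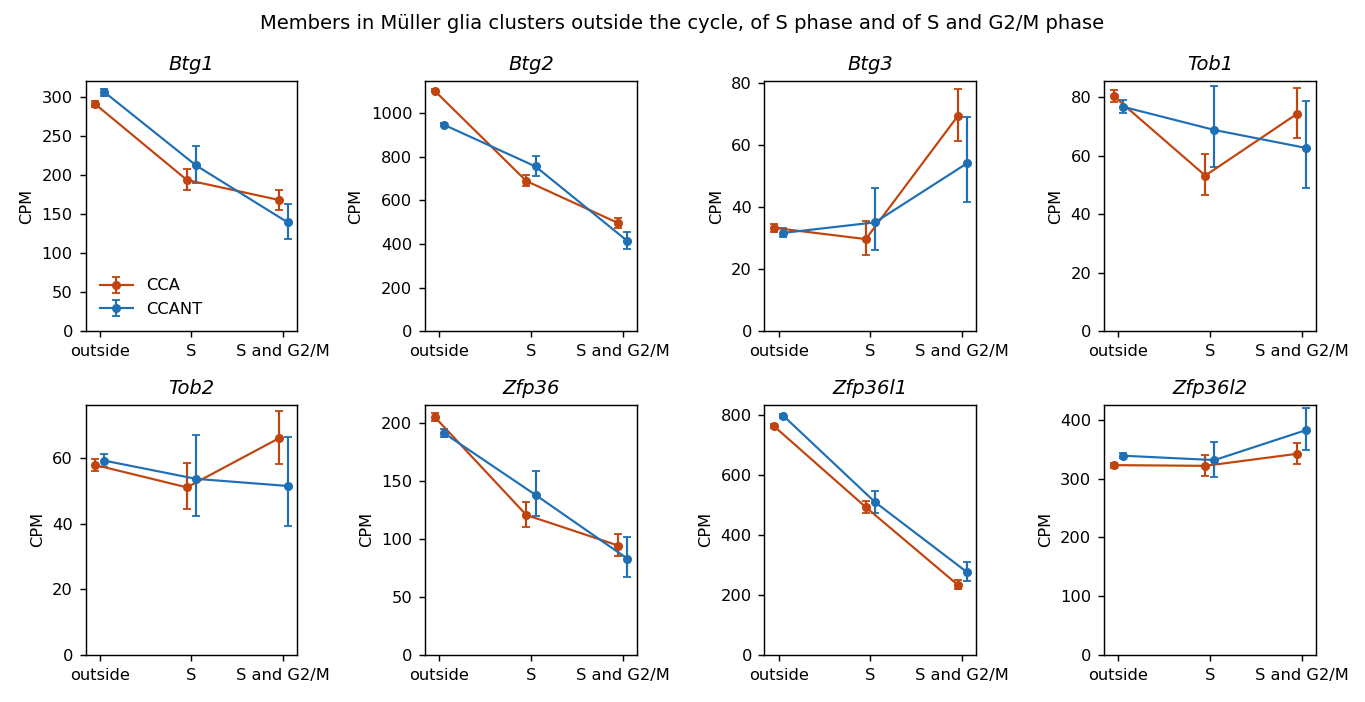
Levels of the 8 genes (CPM, y axes from 0) in MG of clusters outside the cycle, of cluster 7 (S) and of cluster 8 (S and G2/M), for CCA and CCANT, with exact 95% Poisson intervals. *Zfp36l1* drops from 763.8 to 234.6 CPM and *Btg2* from 1104 to 496.5 CPM in CCA, and *Btg3* is highest in cluster 8 (69.3 CPM).

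*Btg2* is known to lower cyclin D1, and *Ccnd1* and the p21 gene *Cdkn1a* were therefore read by *Btg2* level in MG thinned to 8000 UMIs. The study reports *Btg2* as higher in proliferating MG and in its cluster of reactivated MG. It proposes *Btg2* as an example of how cyclin D1 overexpression may end. In CCA MG with 0, 1 to 4, 5 to 14 and 15 or more *Btg2* UMIs, *Ccnd1* was at 134.4, 140.2, 136.7 and 104.7 CPM. In CCANT it was at 117.2, 118.4, 131.9 and 120.8 CPM, and in control at 183.3, 203.5, 252 and 396.6 CPM, the last in 29 cells. *Ccnd1* was thus higher with more *Btg2* in control MG, without such an order in CCANT, and lowest in the top class of CCA. Cycling MG, in whose clusters *Ccnd1* was higher and *Btg2* lower in CCA, were not set apart in these classes.

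*Cdkn1a* was at 32.6, 63.3, 79.7 and 116 CPM over the same 4 classes of CCA MG. It was at 27.5, 39.7, 56.7 and 112.8 CPM in CCANT MG, and 4.31 to 11.5 CPM in control, where the lowest value was that of the 29 cells. The immediate-early list rose in step with the classes, from 3468 to 14691 CPM in CCA, from 3273 to 13297 in CCANT and from 3544 to 11237 in control. Its part in these orders was not tested.

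In control MG the GFP transcript marks the virus, and *Btg2* was at 355.8 CPM in MG with no GFP UMI, 460.0 with 1 and 524.6 with 2 or more (2722, 669 and 300 cells at 8000 UMIs). *Zfp36* was at 64.5, 73.8 and 101.7 CPM and *Zfp36l2* at 239.1, 271.1 and 319.2 CPM. *Tob1* was at 62.9, 77.2 and 81.7 CPM. The 3 intervals of *Btg2* did not overlap, and nor did those of *Zfp36l2*. For *Tob1* those of 1 and of 2 or more overlapped, and for *Zfp36* those of 0 and 1. *Btg3* was at 28.9, 30.1 and 33.3 CPM with overlapping intervals. *Btg1* (217.9, 248.9 and 237.5 CPM) and *Zfp36l1* (622.7, 704.8 and 672.9 CPM) were highest with 1 GFP UMI, and *Tob2* was at 62.4, 60.7 and 58.3 CPM with overlapping intervals. GFP was not found in 73.7% of these cells at this depth, and the CCA mix held another amount of the GFP virus, so that no comparison by GFP was made between libraries.

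The sex of the mice differed between the libraries. With at least 3 Y-linked and at most 1 *Xist* UMI, or the reverse, 3474 control MG were male and 0 female, 0 CCA MG were male and 3626 female, and CCANT held 1002 male and 1523 female MG. Sex and treatment cannot be told apart between control and CCA. Male CCANT over male control MG had log2 ratios of 1.28 (1.25 to 1.30) for *Btg2* and 1.46 (1.40 to 1.51) for *Zfp36*. Within CCANT, female over male MG gave -0.04 (-0.06 to -0.01) and -0.12 (-0.17 to -0.06), and no other member differed by more.

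Retinal classes other than MG were read from the 30990 cells that passed the filters before the authors' selection for tdTomato and removal of doublets. *Btg2* in rods was at 96.1, 114.8 and 134.6 CPM over control, CCA and CCANT, and in cones at 285.9, 288.9 and 304.7. In bipolar cells it was at 141.5, 224.6 and 221.3 CPM, and in amacrine cells at 44.8, 104.4 and 121.6 CPM. *Glul*, *Rlbp1* and *Slc1a3*, genes of MG, stood in bipolar cells at 11.7% to 14.5% of their MG level and in rods at 4.77% to 6.41%, and this share was taken as MG transcripts carried over. Free RNA, doublets and attached glia were not told apart in it. Less that share, *Btg2* in bipolar cells was at 88.8, 101.7 and 86.7 CPM, so that the log2 ratios went from 0.67 and 0.65 to 0.19 and -0.04. In rods it was then at 77.0, 58.4 and 75.2 CPM, and in amacrine cells 5.42, 7.32 and 8.94 CPM remained. The share was too large for some genes, since *Zfp36l1* less that share came out below 0 in rods (-8.68, -11.9 and -20.6 CPM), in cones in all 3 libraries, and in bipolar cells of control and CCANT. No direction of *Btg2* is therefore read in these classes.

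Microglia and macrophages (226, 149 and 154 cells), which express *Zfp36* as a brake on cytokines, had it at 331.4, 439.5 and 312.1 CPM. Their CCA ratio was 0.41 (0.31 to 0.51) and their CCANT ratio -0.09 (-0.20 to 0.03), where MG of the same set of cells had 1.40 and 1.38. Less the carried-over share, *Zfp36* in microglia and macrophages was at 321.2, 409.1 and 271 CPM, with ratios of 0.35 and -0.24. In bipolar cells *Zfp36* was at 10.1, 30.5 and 28.1 CPM, with ratios as large as in MG (1.59 and 1.47), and in amacrine cells at 10.53, 19.6 and 29.8 CPM (0.90 and 1.498). Less the carried-over share, 0.647, 8.08 and 0.951 CPM remained in bipolar and 3.45, 1.98 and 7.04 CPM in amacrine cells. *Btg2* in microglia and macrophages was at 233.8, 479.9 and 410 CPM, with ratios of 1.04 and 0.81, which became 0.82 and 0.22 less the carried-over share. *Zfp36* in rods was at 6.69 (4.55 to 9.50), 15.5 (12.8 to 18.6) and 13.0 CPM (10.49 to 15.95), where the share would give 3.44, 10.3 and 11.98 CPM, so that the interval held this value in CCANT and lay above it in control and CCA. *Tob2* stood out as higher in rods (197.8, 207.9 and 226.1 CPM) and cones (168.7, 230.5 and 217.8 CPM) than in MG (59.0, 56.5 and 59.9 CPM).

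**Figure D5:**
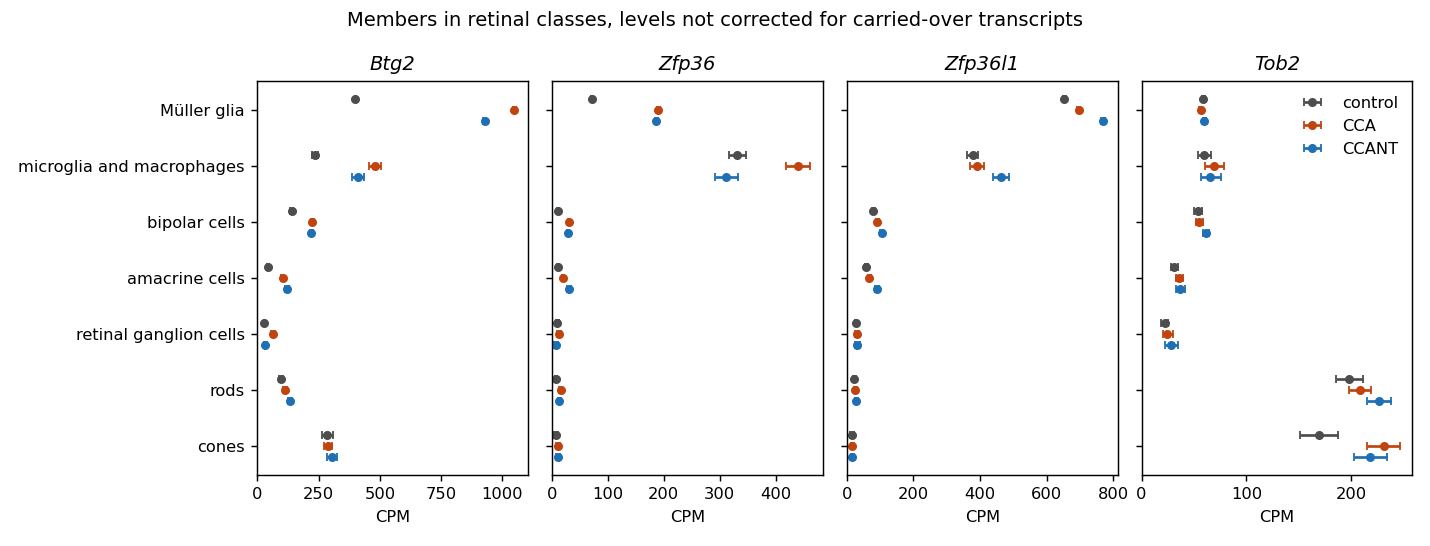
Levels of *Btg2*, *Zfp36*, *Zfp36l1* and *Tob2* (CPM, x axes from 0) in retinal classes of the 3 libraries, from all cells passing the filters, with exact 95% Poisson intervals. *Btg2* and *Zfp36* separate control from CCA and CCANT in MG (*Btg2* 400.7, 1047 and 926.9 CPM), and *Btg2* does so before correction in rods, bipolar cells, amacrine cells and microglia too, with overlapping intervals in cones (285.9, 288.9 and 304.7 CPM), while *Tob2* is highest in rods and cones.

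Genes of deadenylases, among them those through which both families act, and of poly(A)-binding proteins were nearly level. The list of 16 genes holds CCR4-NOT and PAN subunits, *Parn*, *Pabpc1* and *Pabpc4*. Of these, 14 were measured and 0 were past 2-fold in any of the 3 comparisons. The median log2 ratio was 0.04 in CCA and 0.05 in CCANT, beside 0.02 and 0.00 for all genes. *Pabpc1*, the poly(A)-binding protein, had the highest ratio (0.43 and 0.45) and *Pan3*, a subunit of the PAN deadenylase, was the lowest in CCA (-0.32 and -0.08). Of 22 partners, which include SMADs, 14-3-3 proteins and decapping factors, 0 were past 2-fold and the median was 0.03 in both. *Ywhah* (0.36 and 0.08) and the retinoblastoma gene *Rb1* (-0.34 and -0.36) were at its ends. Of all genes measured, 0.939% were past 2-fold higher and 0.41% lower in CCA, and 0.943% and 0.93% in CCANT. In CCANT over CCA the shares were 0.131% and 0.367%. A count of 0 in lists this short is near these shares.

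Among 27 textbook AU-rich targets of Zfp36 proteins, 15 were measured, of which 3 were past 2-fold higher in CCA, 2 in CCANT and 0 lower. Of all genes measured, 0.939% were higher in CCA and 0.943% in CCANT, and 0.41% and 0.93% were lower. The median of the 15 targets was 0.44 in both comparisons. *Socs3*, an inhibitor of cytokine signalling, was at 37.4, 130 and 128.9 CPM (1.80 and 1.79), and *Cdkn1a* was at 9.73, 77.2 and 61.7 CPM (2.99 and 2.66). *Ccnd1* was the lowest (-0.63 and -0.73). The targets share genes with the immediate-early list, of which 7 of 19 measured genes were past 2-fold higher in CCA and 7 of 20 in CCANT, with *Nr4a1* (2.44 and 2.66) among them in both and *Jund* at the lower end of the list (0.23 and 0.22). *Nr4a1* and *Gadd45b*, at 9.81 and 12.6 CPM in the control, passed the filter only through the treated groups, and so did *Egr3* (5.55 CPM in the control, ratio 2.89) in CCANT, so that these calls were in part fixed by the filter. *Egr3* was below the filter in CCA over control (ratio 2.29).

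Of 20 p53 target genes, 13 were measured, and 2 were past 2-fold higher and 1 lower in CCA and in CCANT. Beside them, 0.939% of all genes measured were higher and 0.41% lower in CCA, and 0.943% and 0.93% in CCANT. *Cdkn1a* and *Phlda3* (1.21 and 1.34) were the higher pair and *Tap1*, the peptide transporter of antigen presentation, the lower one (-1.04 and -1.92). The median was 0.37 and 0.31, and 12 of 13 in CCA and 11 of 13 in CCANT were above 0. *Cdkn1a*, at 9.73 CPM in the control, passed the filter on low levels only through the treated groups, so that its call in this list and in that of the AU-rich targets was in part fixed by the filter. Of 18 cell cycle genes, 4 passed the filter in CCA and 1 in CCANT. *Cenpf*, *Mki67* and *Top2a*, at 0.476, 0.984 and 1.40 CPM in the control, passed only through CCA and so had to be higher there, and no count is read from the list. The summed level of the 18 genes was 64.8 CPM in control, 468.8 under CCA and 240.6 under CCANT, with *Cenpf* (7.53 in CCA), *Top2a* (5.92) and *Pcna* (1.16) among those higher.

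Genes were also grouped by the number of TATTTAT cores in their 3' UTR, the sequence printed above for the members. In CCA over control the median log2 ratio was 0.04 for 4841 genes with no core, -0.01 for 1549 genes with 1, -0.03 for 565 with 2 and -0.04 for 346 with 3 or more. In CCANT it was 0.02, -0.03, -0.04 and -0.04. The medians thus lay within 0.1 of each other, and the median UTR grew with the number of cores, from 962 to 3736 bases in CCA. Among the longest UTRs, when genes were split into 3 equal parts by UTR length, the medians in CCA lay between -0.05 and -0.03 in all 4 classes. The core was present in 22 of the 27 textbook targets (81.5%) and in 27.5% of 20996 genes with a UTR. The list was made of AU-rich targets, so its higher share was in part fixed by that choice, and UTR length was not matched.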

How the data were processed

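The authors made UMI counts with Cell Ranger 6.1.1 on mm10 plus tdTomato and GFP, with intronic reads counted, removed doublets with DoubletFinder, and deposited 1 count matrix per library and a joint count table of the kept cells. Both hold whole counts. In the joint table, made after the authors' aggregation of libraries, the median control cell held 93.1% of its UMIs, against 99.9% in CCA and CCANT, so the joint counts were used only as an alternative. Library totals were 224515457, 219051219 and 222497877 UMIs for control, CCA and CCANT. Cells with under 2000 features, over 100000 UMIs or over 15% mitochondrial transcripts had been left out.

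The kept cells were taken from the joint table and their counts from the library matrices. Cells were clustered without the members (scanpy 1.11.5, 7 components, Leiden resolution 0.3 with leidenalg 0.10.2), and clusters were named from fixed markers. The naming rule was revised after the clusters and their leading genes were seen and before any member's level in them was read. With a ranking pseudocount of 5 or 10 CPM clusters 4 and 6 would have stayed unnamed, with 15 CPM cluster 4, and 25 CPM was used. A floor of 1 on the median log2 rise of the markers in place of 1.5 kept cluster 8 as cycling MG. Levels, ratios and exact intervals used numpy 2.4.6 and scipy 1.17.1. The code for the 2-fold calls was checked on simulated counts.

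Members and gene lists were chosen with earlier results of these data known, and the study's own table had been read before the 2-fold threshold was set. Named genes were all members and, of each list, the largest differences from control to CCA, 2 in each direction where past 2-fold and otherwise 1. Scrublet called 1 of 10926 cells (0.00915%), after doublets had been removed by the authors. Alternatives covered scaling, mean over cells, cells compared, the definition of cycling, sex, fold and filter. The study's methods give harvest, tamoxifen dose and control shRNA differently from the sample labels, which were followed here.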

Additional observations from a re-analysis of the deposited data

How the results depend on the processing

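*Btg2* and *Zfp36* stayed past 2-fold higher than control under every alternative run except the weighting to control immediate-early bins, where 0 members passed in CCA and 0 in CCANT. Within single MG clusters *Zfp36* was past 2-fold in none of clusters 1, 2, 3, 4 and 6. Among these clusters *Btg2* was past 2-fold in clusters 2, 3 and 6 of CCA and in cluster 6 of CCANT. In CCA over control, *Btg2* (1.43) was 1.41 with median-of-ratios size factors, 1.51 as a mean over cells, 1.46 without cycling cells, 1.39 with MG taken before the tdTomato selection, 1.84 without clusters 4 and 6, 1.47 without cluster 8 and 0.54 with the weighting. *Zfp36* (1.45) was 1.57 as a mean over cells, 1.504 over all cells of the joint table, 1.40 with MG taken before the tdTomato selection, 1.49 with the counts of the joint table, 2.16 without clusters 4 and 6 and 0.22 with the weighting. In CCANT over control, *Btg2* (1.26) was 1.21 with MG taken before the tdTomato selection, 1.67 without clusters 4 and 6 and 0.36 with the weighting. *Zfp36* (1.40) was 1.44 as a mean over cells, 1.44 over all cells of the joint table, 2.08 without clusters 4 and 6, 0.20 with the weighting and 1.46 in male cells.

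In cycling over other MG, *Btg2* was -0.71 in CCA and -0.75 in CCANT with at least 3 UMIs against none, -0.25 and -0.073 with 2 or more cycle markers, 0.060 and 0.018 without cluster 8, -0.19 in CCA without clusters 4 and 6 and -0.034 in CCANT as a mean over cells. At 1.5-fold, 184 genes were higher and 87 lower in CCA, 181 and 206 in CCANT, and 45 and 105 in CCANT over CCA. At 2-fold without the filter on low counts, the same counts were 2455 and 836, 2105 and 1051, and 945 and 1441. The cause of these differences was not tested. The removal of clusters 4 and 6, of cluster 8 and of the highest 5% of Scrublet scores was chosen after seeing the data, the last in place of the planned removal of Scrublet calls, which was not run because 1 cell was called. No paired analysis was possible because each group is 1 library. Sampling of cells and libraries is not covered by the intervals.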
